A study of Mus musculus with 8 samples.

Results

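The primitive endoderm is the extraembryonic layer that forms on the surface of the inner cell mass of the mouse blastocyst and later gives rise to the visceral and parietal endoderm of the yolk sac. The 9 genes described here are known for their place in that lineage: the receptor Pdgfra, the transcription factors Sox17, Sox7, Foxa2 and Hnf4a, and the endocytic genes Dab2, Lrp2, Cubn and Amn. They were chosen by name, with earlier results of these data known. All 9 were found among the 23234 genes listed in each of 8 RNA-seq libraries. Expression was given as FPKM, the fragments of a gene divided by its length and by the library's mapped fragments, a scale on which levels can also be compared between genes.

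The libraries formed 4 groups of 2. Tet3-null 2-cell embryos and Tet3-null blastocysts came from oocytes of females with the genotype CKO, given as Zp3-Cre, f/-. Wild-type 2-cell embryos and wild-type blastocysts came from oocytes of f/f females, for which the labels name no Cre. Zp3-Cre acts in growing oocytes, so Tet3-null names the oocyte's genotype, and every embryo also carried the genome of sperm from CAST/EiJ males. Tet3, an enzyme that oxidizes 5-methylcytosine in the zygote, is the gene removed. Oocytes came from superovulated females, were fertilized in vitro, and the zygotes were cultured in KSOM medium. Each library was a pool of whole embryos: 10 2-cell embryos collected at 30 h, or 7 blastocysts collected at 96 h. Because whole blastocysts were pooled, fewer cells of a type and less RNA per cell cannot be told apart. Whether the libraries of a group came from separate collections is not stated, and the p-values below therefore cover only the spread among these samples, part or all of which may be technical.

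In the primitive endoderm lineage of the mouse, FGF signalling and the factor Gata6 set the fate of inner cell mass cells, and Pdgfra is an early surface marker of it. Sox17 and then Sox7, related SRY-box factors, and later Foxa2 and Hnf4a, forkhead and nuclear receptor factors of visceral endoderm, mark successive steps. The apical surface of the mature layer takes up proteins through Lrp2 (megalin) and the complex of Cubn (cubilin) with Amn (amnionless), and Dab2 is the adaptor that links these receptors to clathrin-coated pits.

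The starts of the genes on which the results turn are shown for context. RefSeq promoter entries of the build GRCm38.p6, each from 250 bases before to 50 bases after an annotated start, were matched for 7 of the 9 genes and gave 11 starts. Sox17 and Sox7 are named only. The sequences below belong to Dab2, the most abundant of the 9 genes, with both its starts, to Lrp2, which differed most between stages, and to Cubn, whose level differed most in relative terms between the genotypes in blastocysts among the genes tested. The Dab2 starts lie at chr15:6299539-6299838 and chr15:6386498-6386797 on the plus strand. The Lrp2 start lies at chr2:69585980-69586279 and the Cubn start at chr2:13491827-13492126, both on the minus strand. Capitals mark GATAA, the core letters bound by GATA factors, on either strand (as TTATC on the other). A Sox-type core, ATTGT, was also searched for on both strands, and none of these 4 sequences holds it.
Dab2 start 1: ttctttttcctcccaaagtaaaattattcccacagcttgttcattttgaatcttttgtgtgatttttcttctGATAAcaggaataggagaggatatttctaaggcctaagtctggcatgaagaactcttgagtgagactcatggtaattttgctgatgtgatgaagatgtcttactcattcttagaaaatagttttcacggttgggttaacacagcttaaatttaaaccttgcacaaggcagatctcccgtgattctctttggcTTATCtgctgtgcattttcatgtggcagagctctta
Dab2 start 2: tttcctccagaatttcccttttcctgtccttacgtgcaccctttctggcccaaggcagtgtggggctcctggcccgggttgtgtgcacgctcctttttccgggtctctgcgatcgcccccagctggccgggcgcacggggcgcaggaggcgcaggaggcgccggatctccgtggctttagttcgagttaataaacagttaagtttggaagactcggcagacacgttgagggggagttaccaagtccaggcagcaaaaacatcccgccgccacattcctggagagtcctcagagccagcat
Lrp2: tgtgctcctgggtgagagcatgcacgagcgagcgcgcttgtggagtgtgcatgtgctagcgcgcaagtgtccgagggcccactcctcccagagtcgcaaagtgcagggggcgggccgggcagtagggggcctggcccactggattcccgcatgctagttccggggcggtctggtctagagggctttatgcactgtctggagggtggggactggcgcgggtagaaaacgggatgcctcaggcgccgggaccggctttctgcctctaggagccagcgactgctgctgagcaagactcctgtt
Cubn: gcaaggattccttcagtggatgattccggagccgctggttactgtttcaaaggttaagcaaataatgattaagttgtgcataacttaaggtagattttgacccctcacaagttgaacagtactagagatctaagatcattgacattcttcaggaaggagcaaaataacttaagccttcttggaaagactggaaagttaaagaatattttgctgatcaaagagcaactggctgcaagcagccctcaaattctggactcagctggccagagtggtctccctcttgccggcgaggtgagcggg
The first Dab2 start held GATAA letters at 2 places and only 2 CG dinucleotides. The second Dab2 start held 19 CG and no GATAA, and the Lrp2 start held 20 CG. The Cubn start held 5 CG, against a median of 7 over all 32851 promoters of this length. Among the 11 starts, GATAA was in 3 (1 each of Foxa2, Hnf4a and Dab2) and ATTGT in 1 (Hnf4a), where 25.4% and 31.0% of all promoters held them. These letters are a description of the windows and say nothing of binding. The data do not separate transcripts by start.

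Between 10607 and 11660 genes reached 1 FPKM per library, and no identical non-zero profile was shared by libraries of a group. Read totals are unknown, and relative depth within a stage, estimated from the steps of low values, was 1.01 to 1.315 times that of wild-type replicate 1. Tet3-null 2-cell replicate 2 differed from the rest of its stage, with 7101 genes at 0 where the others had 5549 to 6080. As a check of the labels, Tet3 measured 3.285 and 4.41 FPKM in Tet3-null 2-cell embryos, against 10.8 and 7.54 FPKM in wild-type (log2 change -1.06, limma adjusted p = 0.0690). In blastocysts Tet3 was low and overlapped, with 0.519 and 0.412 FPKM in Tet3-null, against 0.957 and 0.459 FPKM in wild-type (limma adjusted p = 1), so it gives no check of the blastocyst labels. The oocyte and 2-cell markers checked summed to 2491 to 4197 FPKM in 2-cell libraries and to at most 4.70 FPKM in blastocysts. Blastocyst libraries held epiblast markers at sums of 920 to 1026 FPKM and trophectoderm markers at 3689 to 6028 FPKM, so the primitive endoderm genes were read against a background of both other lineages. Markers of cumulus and granulosa cells summed to at most 0.919 FPKM in blastocysts and to 15.2 to 31.2 FPKM in 2-cell libraries. Tnfaip6 alone carried nearly all of the 2-cell sums, at 14.35 to 29.5 FPKM. Each other marker of that list was under 1 FPKM there, with Amh listed at 0. The haemoglobin gene Hbb-b1 was listed at 0 in every library, and the 10 blood and other somatic markers summed to 23.8 to 30.8 FPKM in blastocysts. In 2-cell embryos they summed to 4.56 and 5.62 FPKM in Tet3-null, against 11.4 FPKM in each wild-type library. Cd68 and Pecam1 carried most of these sums at both stages, and no other marker of that list exceeded 1.074 FPKM. In 2-cell embryos 6 sperm markers summed to 11.8 and 23.4 FPKM in Tet3-null, against 7.39 and 8.05 FPKM in wild-type. Of these markers only Prm2 did not overlap, at 8.52 and 17.15 FPKM in Tet3-null against 2.47 and 4.43 FPKM in wild-type. Prm1, Tnp1, Odf1 and Akap4 overlapped, and Tnp2 was listed at 0 there.

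The receptor and the endocytic genes reached very different levels. Dab2, Lrp2 and Pdgfra were strongly expressed or clearly present in blastocysts, whereas the 4 transcription factors, Cubn and Amn stayed near or below 1 FPKM there. Dab2 lay above 97.51% to 97.99% of all listed genes in the blastocyst libraries and made up 77.1% to 82.6% of the summed FPKM of the 9 genes. Lrp2 lay above 91.5% to 92.8% of genes and Pdgfra above 70.2% to 73.4%.

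**Figure D1:**
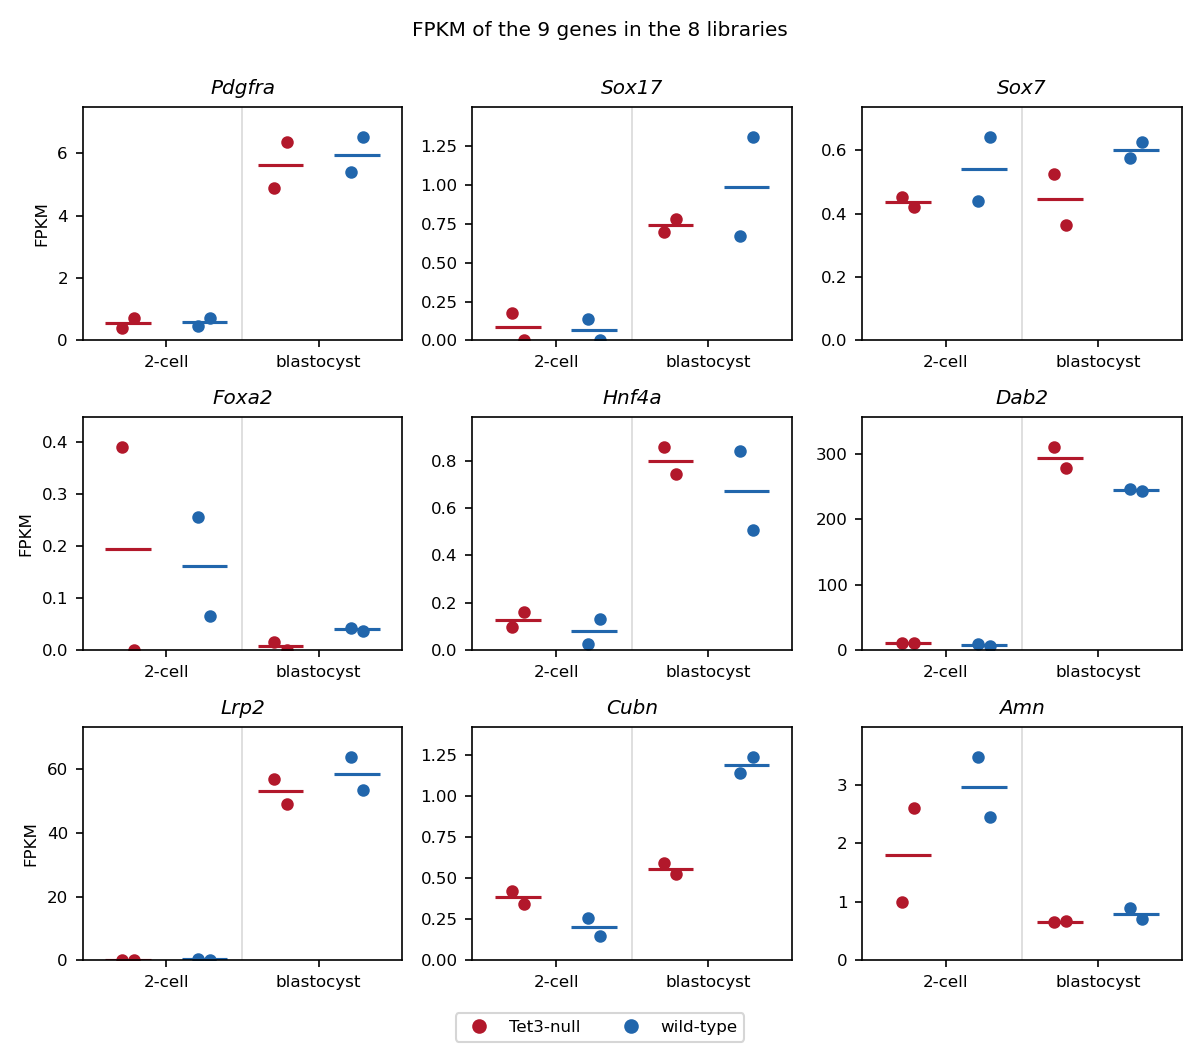
FPKM of each of the 9 genes (linear axes from 0, each panel with its own scale) in the 8 libraries; points are libraries, lines the means of 2, Tet3-null in red and wild-type in blue. Dab2, Lrp2 and Pdgfra are far higher in all blastocyst than in all 2-cell libraries, Amn is lower in all blastocyst libraries, and Cubn is the gene in which both Tet3-null blastocyst libraries (0.593 and 0.522) lie well under both wild-type ones (1.14 and 1.23).

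Among the regulators, Pdgfra, which encodes the alpha receptor for platelet-derived growth factor, had 4.89 and 6.34 FPKM in Tet3-null blastocysts, against 5.385 and 6.50 FPKM in wild-type blastocysts. It was at 0.384 and 0.708 FPKM in Tet3-null 2-cell embryos, against 0.4655 and 0.707 FPKM in wild-type 2-cell embryos. The genotypes overlapped at both stages, while every blastocyst library was above every 2-cell library.

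Sox17, the SRY-box factor that maintains the endoderm program, had 0.699 and 0.781 FPKM in Tet3-null blastocysts, against 0.671 and 1.30 FPKM in wild-type blastocysts. In 2-cell embryos it was at 0.176 and 0 FPKM in Tet3-null, against 0.137 and 0 FPKM in wild-type. Only wild-type blastocyst replicate 2 reached 1 FPKM, and the genotypes overlapped at both stages. Hnf4a, the nuclear receptor of visceral endoderm and liver, had 0.855 and 0.742 FPKM in Tet3-null blastocysts, against 0.841 and 0.506 FPKM in wild-type blastocysts. It was at 0.0988 and 0.161 FPKM in Tet3-null, against 0.0269 and 0.133 FPKM in wild-type 2-cell embryos. Like Sox17, it was low, higher in all blastocyst libraries than in all 2-cell libraries, and overlapping between genotypes.

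Sox7, a factor related to Sox17, had 0.526 and 0.365 FPKM in Tet3-null blastocysts, against 0.575 and 0.627 FPKM in wild-type blastocysts. Its 2-cell values were 0.454 and 0.421 FPKM in Tet3-null, against 0.441 and 0.641 FPKM in wild-type. The stages overlapped in both genotypes, so the level did not differ between them beyond the spread. Foxa2, the forkhead factor of later endoderm, was at 0.0164 FPKM and listed at 0 in Tet3-null blastocysts and was at 0.0434 and 0.0381 FPKM in wild-type blastocysts. It was at 0.389 FPKM and listed at 0 in Tet3-null 2-cell embryos, and at 0.256 and 0.0657 FPKM in wild-type 2-cell embryos. It was the lowest of the 9 genes in every blastocyst library, and a difference between genotypes was not detectable at these values.

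Among the endocytic genes, Dab2, the clathrin adaptor, had 310.0 and 278 FPKM in Tet3-null blastocysts, against 247 and 244 FPKM in wild-type blastocysts. It was at 10.97 and 10.94 FPKM in Tet3-null 2-cell embryos, against 10.2 and 7.32 FPKM in wild-type 2-cell embryos. Both Tet3-null libraries lay above both wild-type libraries at each stage. It was the only one of the 9 genes at 1 FPKM or more in all 8 libraries.

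Lrp2, the large multiligand receptor megalin, had 56.9 and 49.1 FPKM in Tet3-null blastocysts, against 63.6 and 53.4 FPKM in wild-type blastocysts. In 2-cell embryos it was at 0.0686 FPKM and listed at 0 in Tet3-null, and at 0.380 and 0.240 FPKM in wild-type. The genotypes overlapped in blastocysts and did not overlap in 2-cell embryos, where all values were under 1 FPKM.

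Cubn, the peripheral receptor that binds intrinsic factor and albumin, had 0.593 and 0.522 FPKM in Tet3-null blastocysts, against 1.14 and 1.23 FPKM in wild-type blastocysts. It was at 0.4205 and 0.346 FPKM in Tet3-null 2-cell embryos, against 0.256 and 0.1495 FPKM in wild-type 2-cell embryos. The groups did not overlap at either stage, and the Tet3-null libraries were lower in blastocysts and higher in 2-cell embryos. Amn, the membrane partner that carries Cubn to the cell surface, ran the other way between stages, at 0.660 and 0.670 FPKM in Tet3-null blastocysts, against 0.893 and 0.703 FPKM in wild-type blastocysts. Its 2-cell values were 0.9985 and 2.60 FPKM in Tet3-null, against 3.47 and 2.46 FPKM in wild-type. The 2 genes of the cubilin complex therefore had opposite stage patterns, Cubn with all blastocyst libraries above all 2-cell libraries and Amn with all of them below.

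In Tet3-null blastocysts the order of levels was Dab2, Lrp2, Pdgfra, Hnf4a with Sox17, Amn, Cubn with Sox7, and Foxa2, where genes joined by "with" overlapped in their libraries. In wild-type blastocysts it was Dab2, Lrp2 and Pdgfra, then Cubn, Sox17, Amn, Hnf4a and Sox7, each overlapping its neighbour, and Foxa2 last. In 2-cell embryos Dab2 led and Amn came next in both genotypes, followed by Pdgfra with Sox7 and then by the remaining genes in overlapping ranges. By mean level, Cubn and Hnf4a exchanged places between the orders in blastocysts. Hnf4a came right after Pdgfra in Tet3-null and Cubn did so in wild-type, where Cubn, Sox17, Amn, Hnf4a and Sox7 overlapped from neighbour to neighbour. The ratio of Lrp2 to Cubn FPKM was 95.9 and 94.2 in Tet3-null blastocysts, against 55.7 and 43.3 in wild-type blastocysts. The ratio of Dab2 to Lrp2 was 5.45 and 5.67 in Tet3-null, against 3.88 and 4.58 in wild-type blastocysts. The summed FPKM of the 9 genes was 375 and 337 in Tet3-null, against 320 and 308.5 in wild-type blastocysts, and Dab2 carried most of that sum.

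**Figure D2:**
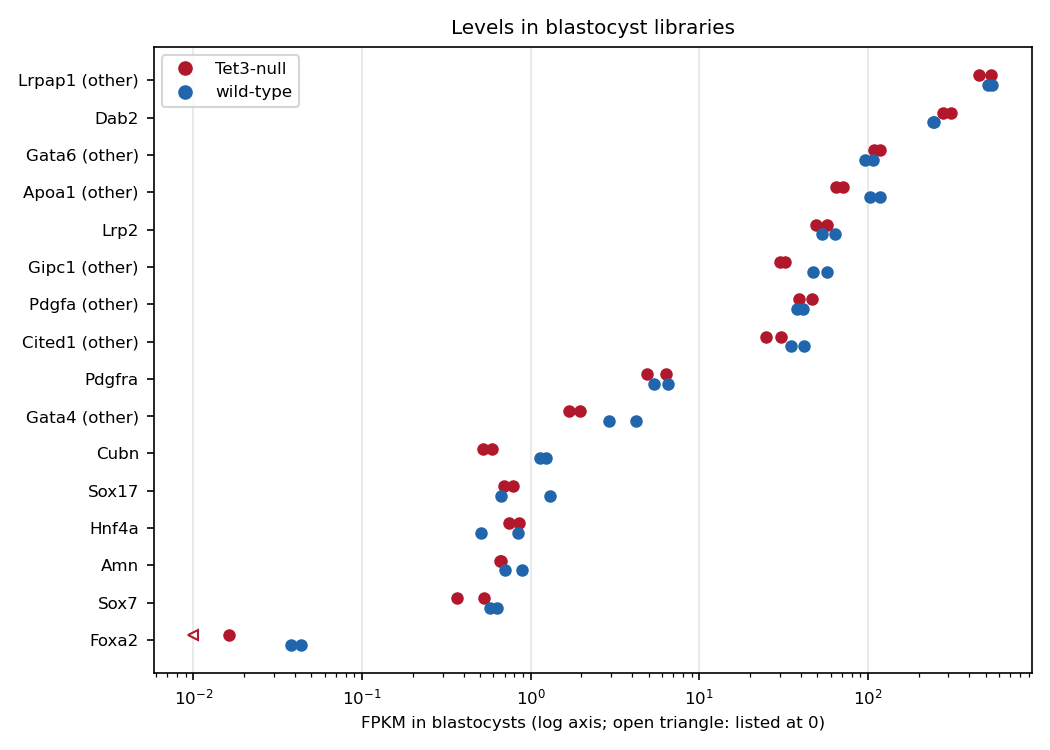
FPKM in the 4 blastocyst libraries on a log axis for the 9 genes and, marked "other", 7 genes of the related lists; Tet3-null in red, wild-type in blue, an open triangle for a value listed at 0. Dab2 and Lrp2 lie with Lrpap1, Gata6 and Apoa1 at 49.1 FPKM or more, Pdgfra lies under its ligand gene Pdgfa, and the 4 transcription factors, Cubn and Amn lie near or below 1 FPKM.

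The first comparison asked how the genes differ between the stages. Dab2 rose 26.9-fold in Tet3-null blastocysts over Tet3-null 2-cell embryos (294 ± 22.3 against 10.96 ± 0.0230 FPKM, SD, n = 2) and 28.0-fold in wild-type (246 ± 1.96 against 8.76 ± 2.05 FPKM). Lrp2 rose to 53.0 ± 5.50 FPKM in Tet3-null blastocysts, against 0.0343 ± 0.0485 in Tet3-null 2-cell embryos, and 189-fold in wild-type, to 58.5 ± 7.26 against 0.310 ± 0.0985 FPKM. Pdgfra rose 10.3-fold in Tet3-null and 10.1-fold in wild-type. Cubn rose 5.86-fold in wild-type blastocysts, and Amn fell there, with 2-cell embryos 3.72-fold higher.

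Differences were tested with limma on log2(FPKM + 1), a scale that understates the change of weakly expressed genes, for the 13549 genes that reached 1 FPKM in 2 or more libraries, and genes were called at a Benjamini-Hochberg adjusted p under 0.05. Only 5 of the 9 genes passed that filter: Pdgfra and Lrp2 through the blastocysts, Cubn through wild-type blastocysts alone, Amn through 3 of the 4 2-cell libraries, and Dab2 in every library. Sox17, Sox7, Foxa2 and Hnf4a did not pass. In Tet3-null the log2 change of blastocysts over 2-cell embryos was 4.62 (SE 0.17) for Dab2, 5.70 (SE 0.18) for Lrp2 and 2.097 (SE 0.21) for Pdgfra, with limma adjusted p of 1.08e-06, 6.13e-07 and 9.04e-05. In wild-type it was 4.68, 5.50 and 2.13 with the same SEs, and adjusted p of 1.26e-06, 8.19e-07 and 8.89e-05. Lrp2 and Pdgfra entered the test only through the blastocysts, where they were higher, so their p-values here are not read as support. With no filter the limma adjusted p of Dab2, Lrp2 and Pdgfra was 5.20e-05, 2.63e-05 and 0.00107 in Tet3-null. In wild-type it was 5.68e-05, 3.17e-05 and 0.00106. These 3 genes were called in every alternative fit.

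Cubn and Amn passed the test between stages in wild-type only. The log2 change of Cubn was 0.17 (SE 0.16, limma adjusted p = 0.349) in Tet3-null and 0.86 (SE 0.16, adjusted p = 0.00183) in wild-type. Cubn entered the test only through wild-type blastocysts, the group where it was highest, so this difference in calls is not read as support. With no filter its limma adjusted p was 0.101 in Tet3-null and 0.000543 in wild-type. The log2 change of Amn was -0.69 (SE 0.29, limma adjusted p = 0.0675) in Tet3-null and -1.13 (SE 0.29, adjusted p = 0.00996) in wild-type. Amn entered through 2-cell libraries alone, the stage where it was higher, so its call is not read as support either. With no filter the limma adjusted p of Amn was 0.157 in Tet3-null and 0.0394 in wild-type. The wild-type call of Amn was lost without wild-type 2-cell replicate 1 (adjusted p = 0.0607) or wild-type blastocyst replicate 2 (0.0571), and Amn passed in Tet3-null without Tet3-null 2-cell replicate 1 (log2 change -1.11, adjusted p = 0.00418). The difference between the genotypes in the stage change is tested further on.

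So 3 of the 5 tested genes were called higher and none lower in Tet3-null, where 74% of all tested genes were called, 38.9% higher and 35.1% lower. In wild-type 4 were called higher and 1 lower, where 74.3% of all tested genes were called, 35.8% higher and 38.4% lower. Most genes differ between these stages, and a call alone sets none of the 5 apart. Of the 5, Dab2 alone reached 1 FPKM at both stages. The others entered through the stage where they were higher, so these counts are not read as support. Over all 9 genes, 6 were higher without overlap, 1 lower and 2 overlapping in Tet3-null, against 63.5% of all listed genes without overlap, 32.9% higher and 30.7% lower. In wild-type 6 were higher, 2 lower and 1 overlapping, against 66.2%, 30.1% higher and 36% lower. With no filter on low values, over 23234 genes, Hnf4a and Sox17 were also called higher in blastocysts. The log2 change of Hnf4a was 0.67 in Tet3-null (limma adjusted p = 0.00728) and 0.63 in wild-type (0.00931), and that of Sox17 was 0.68 (0.0332) and 0.88 (0.0143). Sox7 (limma adjusted p = 1 in Tet3-null and 0.691 in wild-type) and Foxa2 (0.368 and 0.552) did not pass. In that fit 43.9% of all genes were called in Tet3-null, 23% higher, and 44.6% in wild-type, 20.8% higher.

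The second comparison asked what the loss of Tet3 from the oocyte changed in blastocysts. None of the 5 tested genes was called in Tet3-null over wild-type blastocysts, where limma called 9 of 13549 genes, or 0.0664%, and 740 genes had an unadjusted p under 0.05. Cubn showed the largest relative change of the 5, at 0.558 ± 0.0504 FPKM in Tet3-null against 1.19 ± 0.0646 FPKM in wild-type (SD, n = 2), so that wild-type was 2.13-fold higher. Its log2 change was -0.49 (SE 0.16), with an unadjusted limma p of 0.0167 and an adjusted p of 0.749. Cubn entered this test only through wild-type blastocysts, 1 of the groups compared, so these p-values are not read as support. With no filter its limma adjusted p was 0.170. The log2 change was 0.26 (SE 0.17) for Dab2, -0.14 (SE 0.18) for Lrp2, -0.074 (SE 0.21) for Pdgfra and -0.11 (SE 0.29) for Amn, each with a limma adjusted p of 1. A missed threshold does not show that the levels were alike: the SEs were 0.17 to 0.29 for these 4 genes.

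**Figure D3:**
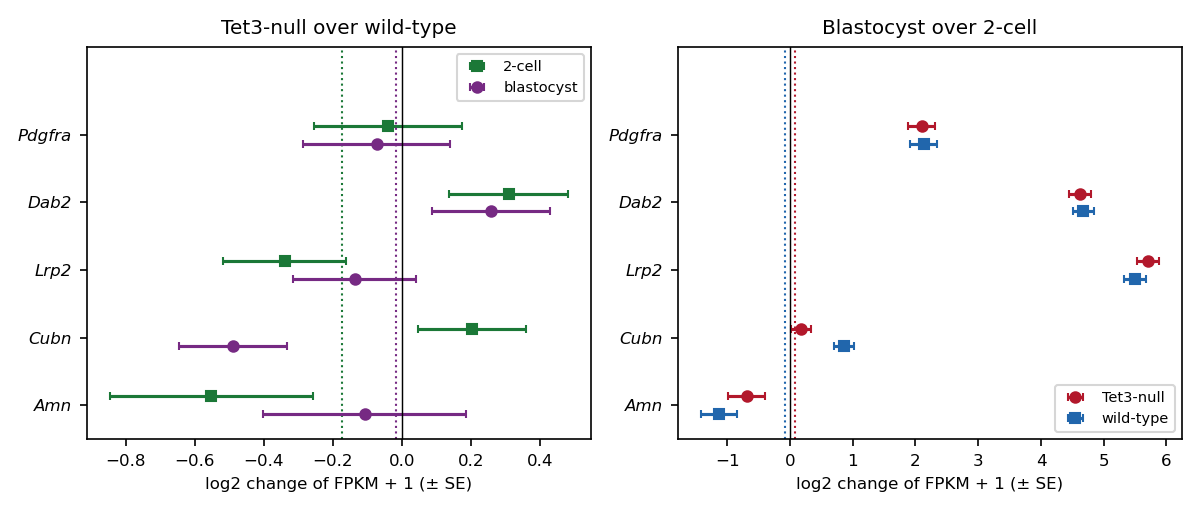
Log2 change of FPKM + 1 with its SE for the 5 tested genes, left for Tet3-null over wild-type in 2-cell embryos (squares) and blastocysts (circles), right for blastocyst over 2-cell in Tet3-null (circles) and wild-type (squares); dotted lines give the median of all 13549 genes. Genotype changes lie between -0.55 and 0.31, while the stage changes of Pdgfra, Dab2 and Lrp2 lie between 2.097 and 5.70.

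Without regard to a test, both Tet3-null blastocyst libraries were above both wild-type libraries for 1 gene, Dab2, and below them for 4, Sox7, Foxa2, Cubn and Amn. The other 4 overlapped. Over all listed genes 33.7% did not overlap, 14.8% higher and 19% lower. For Foxa2 all 4 values were under 0.05 FPKM. For Sox7 the gap between the groups, 0.526 against 0.575 FPKM at its narrowest, was smaller than the range within Tet3-null.

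At the 2-cell stage none of the 5 tested genes was called either, where limma called 368 genes, or 2.72%, 83 higher and 285 lower in Tet3-null. The log2 change was -0.55 (SE 0.29) for Amn, -0.34 (SE 0.18) for Lrp2, 0.31 (SE 0.17) for Dab2, 0.20 (SE 0.16) for Cubn and -0.041 (SE 0.21) for Pdgfra. The limma adjusted p ranged from 0.292 to 0.935. The median change of all genes was -0.17 under the deposited scaling, and the sign for Pdgfra flipped to 0.061 under median-of-ratios scaling and to 0.20 under quantile normalization. Amn was at 1.80 ± 1.13 FPKM in Tet3-null against 2.97 ± 0.715 FPKM in wild-type, and its groups overlapped through Tet3-null replicate 2. Over the 9 genes, 2 (Dab2 and Cubn) were higher without overlap, 1 (Lrp2) was lower and 6 overlapped, while 35.3% of all listed genes did not overlap, 9.57% higher and 25.7% lower.

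The difference of the Tet3-null effect between the stages was tested as an interaction. For Cubn the effect in blastocysts was lower than in 2-cell embryos by a log2 difference of -0.69 (SE 0.22). Its unadjusted limma p was 0.0168 and its adjusted p 0.249. Cubn passed the filter through wild-type blastocysts alone, so these p-values are not read as support either. With no filter its limma adjusted p was 0.0929. The log2 difference was -0.051 for Dab2, -0.033 for Pdgfra, 0.20 for Lrp2 and 0.44 for Amn, with limma adjusted p of 0.659 to 0.9755. None of the 5 was called, where 19 genes, or 0.14%, were. The stage pattern of Cubn and Amn, called in wild-type and not in Tet3-null, is therefore not shown to differ between the genotypes.

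Genes that work with the 9 were read from lists of ligands, factors and endocytic machinery. Of 8 PDGF ligands and related receptors, 2 reached the filter and none was called between genotypes. Pdgfa, the ligand of Pdgfra, was at 38.9 and 46.4 FPKM in Tet3-null, against 41.45 and 37.9 FPKM in wild-type blastocysts. Its FPKM was 7.95 and 7.32 times that of Pdgfra in Tet3-null blastocysts and 7.70 and 5.82 times in wild-type blastocysts. In 2-cell embryos Pdgfa was at 12.95 and 8.52 FPKM in Tet3-null against 5.37 and 4.76 in wild-type (log2 change 0.93, SE 0.22, limma adjusted p = 0.0684). It passed without either Tet3-null 2-cell library (adjusted p = 0.0392 without replicate 1 and 0.0366 without replicate 2).

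Of 16 endoderm factors related to the 9 genes, 11 were tested and none was called between genotypes at either stage. The median log2 change was -0.092 in blastocysts (all genes: -0.016) and -0.027 in 2-cell embryos (all genes: -0.17), turning to 0.19 and 0.21 at the 2-cell stage under the other scalings. Gata6, the factor at the head of the lineage, was at 109 and 119 FPKM in Tet3-null, against 107 and 96.4 FPKM in wild-type blastocysts. In 2-cell embryos it was under 2 FPKM, with 1.98 and 1.95 in Tet3-null, against 1.42 and 1.40 in wild-type. Between the stages 3 of the 11 factors passed as higher and 6 as lower in Tet3-null embryos, and 4 as higher and 6 as lower in wild-type. Cited1, a transcriptional co-activator, was among those lower in blastocysts, with 30.7 and 24.7 FPKM in Tet3-null blastocysts, against 142.5 and 222 FPKM in Tet3-null 2-cell embryos. In wild-type it measured 41.6 and 34.9 FPKM in blastocysts, against 257 and 262.5 FPKM in 2-cell embryos. Gata4, a partner of Gata6 chosen here after its values were seen, was at 1.97 and 1.68 FPKM in Tet3-null, against 4.23 and 2.91 FPKM in wild-type blastocysts (log2 change -0.68, SE 0.41, limma adjusted p = 1). In 2-cell embryos Gata4 had 12.7 and 4.54 FPKM in Tet3-null, against 12.1 and 16.4 FPKM in wild-type (log2 change -0.80, SE 0.41, limma adjusted p = 0.286), and it was called lower without Tet3-null 2-cell replicate 1 (-1.45, adjusted p = 0.0165).

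Of 26 genes of the endocytic machinery and related receptors, 23 were tested, and 2 were called lower and none higher in Tet3-null 2-cell embryos. The median log2 change was -0.20, near that of all genes, -0.17, and was -0.030 under median-of-ratios scaling and 0.0087 under quantile normalization. Lrpap1, the chaperone that escorts Lrp2 and its relatives through the secretory pathway, was at 15.3 and 14.4 FPKM in Tet3-null, against 40.8 and 41.1 FPKM in wild-type 2-cell embryos. It fell by 1.41 on the log2 scale (SE 0.13, limma adjusted p = 0.0118), with wild-type 2.76-fold higher. The call was lost in the 2-cell libraries alone (adjusted p = 0.376) and without wild-type 2-cell replicate 1 (0.0728), wild-type 2-cell replicate 2 (0.0798), wild-type blastocyst replicate 1 (0.0746) or wild-type blastocyst replicate 2 (0.0741). In blastocysts Lrpap1 was at 455 and 538 FPKM in Tet3-null, against 517 and 544 FPKM in wild-type, and the groups overlapped. At its low 2-cell level Lrp2 itself was lower in both Tet3-null libraries, as described above.

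Gipc1, a PDZ protein that binds the tail of Lrp2, was at 0.838 and 1.28 FPKM in Tet3-null, against 3.21 and 5.09 FPKM in wild-type 2-cell embryos (log2 change -1.31, SE 0.23, limma adjusted p = 0.0420). This call held in 2 of 14 alternative fits, with a pseudocount of 0.1 (adjusted p = 0.0397) and without Tet3-null 2-cell replicate 1 (0.0260), and the adjusted p was 0.0507 to 0.376 in the others, which include leaving out each of the other 7 libraries. In blastocysts Gipc1 was at 29.99 and 32.4 FPKM in Tet3-null, against 56.9 and 47.0 FPKM in wild-type (log2 change -0.71, SE 0.23, adjusted p = 0.753). No gene of the list was called in blastocysts, where 5 changes were positive and 18 negative with a median of -0.15 (17 and 16 negative under the other scalings). Between stages, 11 of the 23 passed as higher and 5 as lower in Tet3-null embryos, and 12 as higher and 5 as lower in wild-type.

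Genes of the later yolk sac layers were read in the same way. Of 19 matched visceral endoderm genes, 7 were tested and none was called between genotypes, with a median of -0.086 in blastocysts (-0.038 and -0.014 under the other scalings). Apoa1, an apolipoprotein secreted by visceral endoderm, was at 70.9 and 64.25 FPKM in Tet3-null, against 102 and 117 FPKM in wild-type blastocysts (log2 change -0.69, SE 0.22, limma adjusted p = 0.711). In 2-cell embryos it measured 0.638 and 1.42 FPKM in the Tet3-null libraries, and both wild-type values were 0 (log2 change 0.99, SE 0.22, limma adjusted p = 0.0595). This 2-cell change passed with a pseudocount of 0.1 (3.404, adjusted p = 0.0165) and without Tet3-null 2-cell replicate 1 (1.27, adjusted p = 0.00612). Between stages, 2 of the 7 passed as higher and 4 as lower in Tet3-null embryos, and 2 as higher and 3 as lower in wild-type.

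Of 15 parietal endoderm and matrix genes, 12 were tested and none was called in blastocysts. All 12 changes were negative with a median of -0.59, against -0.016 for all genes. The list was chosen with earlier results of these data known, so this shared sign is not independent support for a decrease. The 15 genes summed to 90.3 and 86.1 FPKM in Tet3-null blastocysts, against 168 and 121 FPKM in wild-type blastocysts. Under median-of-ratios scaling and quantile normalization 11 of the 12 were negative, with medians of -0.55 and -0.51. Srgn, a proteoglycan core protein, was at 3.13 and 2.55 FPKM in Tet3-null, against 7.85 and 4.05 FPKM in wild-type blastocysts (log2 change -0.80, SE 0.29, limma adjusted p = 0.8595). Lama1, a laminin chain chosen here after its values were seen, was at 1.305 and 0.943 FPKM in Tet3-null against 4.55 and 4.37 FPKM in wild-type blastocysts (log2 change -1.37, SE 0.18, limma adjusted p = 0.135). Between stages, 9 of the 12 passed as higher in both genotypes, with 3 as lower in Tet3-null and 2 as lower in wild-type. Lama1, Lamc1, Col4a1, Col4a2, Nid1, Serpinh1 and Pth1r entered the test only through blastocysts, where they were higher. The count of higher genes is therefore not read as support. At the 2-cell stage the median of this list was -0.039, turning to 0.0094 and 0.081 under the other scalings.

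**Figure D4:**
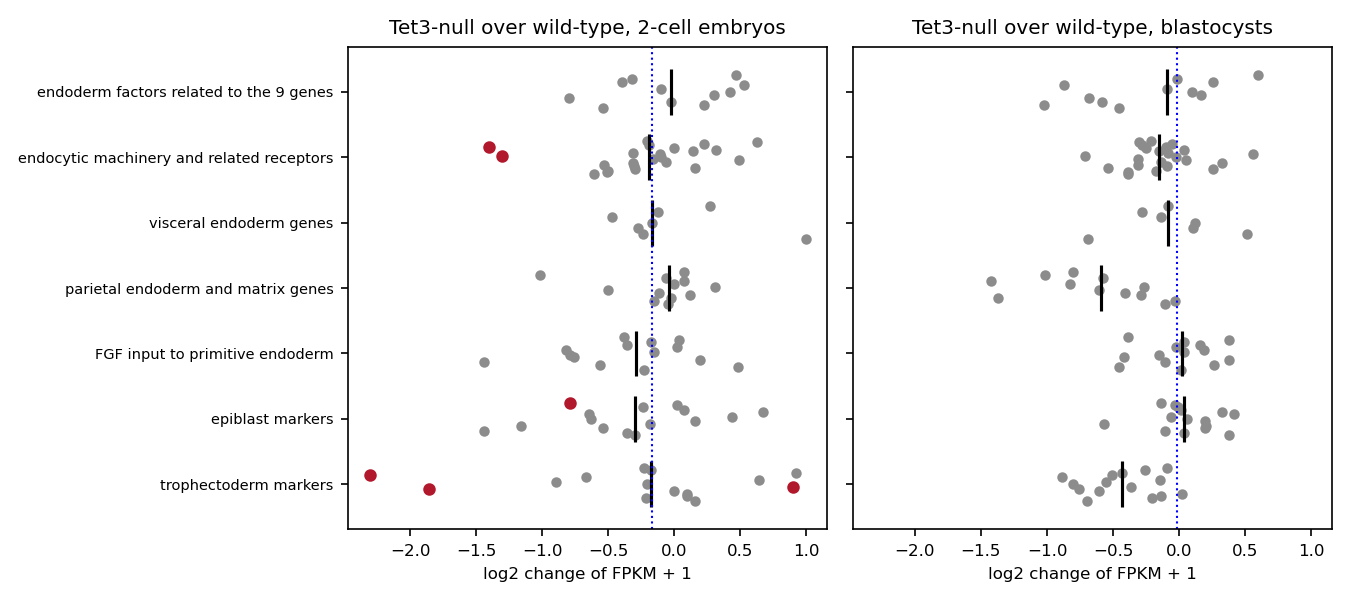
Log2 change of FPKM + 1, Tet3-null over wild-type, for the tested genes of 7 related lists in 2-cell embryos (left) and blastocysts (right); each point is a gene, red where limma called it, black bars are list medians and the dotted line is the median of all genes. In blastocysts no point is red, and the matrix and trophectoderm lists lie mostly below 0 with medians of -0.59 and -0.43.

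FGF signals from the epiblast promote the primitive endoderm, and of 15 genes of that input 14 were tested, with none called between genotypes at either stage. Their median was 0.023 in blastocysts and -0.29 in 2-cell embryos, where it was -0.097 under median-of-ratios scaling and -0.095 under quantile normalization. Between stages, 7 of the 14 passed as higher and 3 as lower in Tet3-null embryos, and 4 as higher and 4 as lower in wild-type. Spry2, a feedback inhibitor of receptor tyrosine kinases, was at 148 and 153 FPKM in Tet3-null, against 129 and 103 FPKM in wild-type blastocysts (log2 change 0.38, SE 0.15, limma adjusted p = 0.864).

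The other lineages of the pooled blastocysts were measured beside these genes. All 15 epiblast markers were tested, with none called in blastocysts and a median of 0.040, and their sums overlapped at 961.5 and 1026 FPKM in Tet3-null, against 1018 and 920 FPKM in wild-type. All 15 trophectoderm markers were tested, with none called in blastocysts but 14 negative (14 and 15 under the other scalings) and a median of -0.43. Their sum was 4068 and 3689 FPKM in Tet3-null blastocysts, against 6028 and 5561 FPKM in wild-type blastocysts, without overlap. Like the matrix list, these markers were chosen with earlier results of these data known. The 10 cumulus and granulosa markers, with Amh at 0 throughout, summed to 0.611 and 0.428 FPKM in Tet3-null blastocysts, against 0.919 and 0.790 FPKM in wild-type blastocysts. The 19 visceral endoderm genes, of which Apoa1 gave the largest share there, summed to 125 and 126 FPKM in Tet3-null blastocysts, against 165 and 166 FPKM in wild-type blastocysts. Cubn thus had its smaller values in the libraries with the smaller visceral endoderm, matrix, trophectoderm and cumulus sums. Dab2 and Gata6 had their larger values there, and Lrp2 and Pdgfra overlapped. The visceral endoderm genes did not all go the same way: of the 7 tested, 3 changes were positive and 4 negative. Apoa1 and Mttp were lower without overlap in Tet3-null blastocysts, while Apoa2, Apoc2, Apoe, Apom and Soat2 overlapped. Mttp was under 1 FPKM there, so the smaller visceral endoderm sum rested mainly on Apoa1. The cumulus sums were under 1 FPKM, and Tnfaip6, the highest of those markers, overlapped between the genotypes. The part of these markers in the result for Cubn was not tested. In 2-cell embryos, 1 epiblast marker (Zfp42, log2 change -0.79, limma adjusted p = 0.0435) was called lower. Of the trophectoderm markers, Gata2 (-1.86, limma adjusted p = 0.00839) and Lgals3 (-2.31, 0.00707) were called lower and Gata3 (0.90, 0.0449) higher there. The macrophage marker Cd68 was called lower as well (-1.05, limma adjusted p = 0.0477), at 2.00 and 2.08 FPKM in Tet3-null, against 4.82 and 5.825 FPKM in wild-type. Of 14 alternative fits, the call held in 10 for Lgals3, 9 for Gata2, 5 for Gata3 and 2 each for Zfp42 and Cd68. It was lost for all 5 genes without wild-type 2-cell replicate 2 (adjusted p 0.0702 to 0.168), without wild-type blastocyst replicate 1 (0.0531 to 0.123) and without wild-type blastocyst replicate 2 (0.05165 to 0.122). Without wild-type 2-cell replicate 1 it was lost for Gata2, Gata3, Zfp42 and Cd68 (0.0610 to 0.132), without either Tet3-null blastocyst library for Gata3, Zfp42 and Cd68 (0.107 to 0.120), and without Tet3-null 2-cell replicate 2 for Zfp42 (0.06075) and Cd68 (0.0761).

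For each tested gene, the most similar genes were those at the smallest Euclidean distance in log2(FPKM + 1) over the 8 libraries, among 13353 filtered genes other than small RNA genes. Lpp (distance 0.471), Sept10 (0.558) and Ubr1 (0.582) were nearest to Pdgfra. Mrps18a (0.721), Pdia6 (1.06) and Gstp1 (1.11) were nearest to Dab2, and AU021092 (0.578), Rab17 (0.644) and Htatip2 (0.665) to Lrp2. Clec16a (0.419), 2310021P13Rik (0.450) and Elac1 (0.469) were nearest to Cubn, and Il23a (0.453), Dmd (0.512) and Pnpla1 (0.539) to Amn. None of the 9 genes was among the 3 nearest of another.

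By position, Foxa2, Hnf4a, Lrp2 and Cubn lie on chromosome 2, which holds 8.61% of the 20645 listed genes that could be placed. Pdgfra lies on chromosome 5, Sox17 on 1, Sox7 on 14, Dab2 on 15 and Amn on 12. The library kit does not mark strand, and exons of Pdgfra, Sox17, Dab2 and Cubn overlap annotated genes on the opposite strand. Reads within those overlaps cannot be assigned to a strand. None of these opposite-strand genes is among the listed genes. No such overlap was annotated for Sox7, Foxa2, Hnf4a, Lrp2 or Amn.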

How the data were processed

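RNA of pooled embryos was measured in 8 libraries, 2 in each of 4 groups. The values deposited by the authors are FPKM. Per the submitters' processing notes, the tools were TopHat2 2.0.10 and Bowtie2 2.1.0, with Cufflinks 2.2.0, and the genome build was mm9. Which gene annotation was counted is not given in the sources used here. The kits named in the labels' protocols do not mark strand.

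From these, log2(FPKM + 1) was fitted, for the 13549 genes that reached 1 FPKM in 2 or more libraries, in limma 3.58.1 (R 4.3.3) with 4 group means over all 8 libraries, empirical Bayes moderation with an intensity trend, two-sided tests and Benjamini-Hochberg adjustment over all genes tested. Every adjusted p in the text comes from limma, from this fit unless an alternative is named with it. The fit was tested on simulated data. Permuting 2 against 2 libraries could not give a p under 0.05, so no such test was run. Read totals are unknown, so no counting intervals are given.

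The 9 genes and all lists were chosen with earlier results of these data known. Named beside the 9 were list genes called between genotypes or, where a list had none, its gene of highest mean FPKM (2 for the factors, of up to 4 that the rule allowed). Gata4 and Lama1 were added outside this rule, after their values were seen. Promoters, chromosomes and exon overlaps come from RefSeq GRCm38.p6 and GENCODE M21 annotation, another build than mm9, and were joined by symbol only. Alternatives were another pseudocount, no filter, 2 other scalings, a replicate block, only the libraries compared, and each library left out.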

Additional observations from a re-analysis of the deposited data

Results flagged for a closer look

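Of the 9 genes and those named beside them, 3 had both Tet3-null libraries above both wild-type libraries in 2-cell embryos and below both in blastocysts. Over all listed genes 9.57% were higher without overlap in Tet3-null 2-cell embryos, and 19% were lower in Tet3-null blastocysts. The share of all genes with both was not computed, so the count of 3 is not read as a result about these genes. Gata3 was named because it was called at the 2-cell stage, so its direction there came with its selection. The difference of the Tet3-null effect, blastocyst minus 2-cell on the log2 scale, was -0.69 for Cubn (limma adjusted p = 0.249), -1.27 for Gata3 (adjusted p = 0.120) and -1.68 for Apoa1 (adjusted p = 0.120), so none passed the test of the difference itself. Gata3 measured 184 and 172.5 FPKM in Tet3-null, against 240 and 221 FPKM in wild-type blastocysts, and measured 9.26 and 12.3 FPKM in Tet3-null, against 5.28 and 5.26 FPKM in wild-type 2-cell embryos. For Cubn the difference ranged from -1.66 to -0.63 over 13 alternative fits, with adjusted p of 0.0912 to 0.588.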

How the results depend on the processing

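Dab2, Lrp2 and Pdgfra kept their stage calls in both genotypes in every alternative, and none of the 5 tested genes was called between genotypes in any. The other 4 were tested only in the fit with no filter, where none was called between genotypes. Replicate differences were nearly uncorrelated between the groups (r of -0.0756 to 0.0184). That cannot show whether libraries were paired by collection, which the labels do not say. The replicate block moved the 2-cell genotype calls to 31 of all genes, against 368, and changed no call of the 5 tested genes. That count of 368 was 243 with a pseudocount of 0.1, 149 (82 higher, 67 lower) with median-of-ratios scaling, 198 (94 higher, 104 lower) with quantile normalization and 3 in the 4 libraries alone. With 1 library left out it ranged from 8 to 3453, with 3453 without Tet3-null 2-cell replicate 1, 314 without Tet3-null 2-cell replicate 2, and 8 to 28 without any 1 of the other 6 libraries. With no filter, 47 genes were called between blastocyst genotypes and 110 for the difference of effects, and 5 of the 9 genes between stages in Tet3-null (against 9, 19 and 3). The 19 became 13 to 1703 with 1 library left out, with 1703 without Tet3-null 2-cell replicate 1 and 42 without Tet3-null 2-cell replicate 2. The cause was not tested. Leaving out 1 library leaves a group with 1 sample, assumed to vary like the others.

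Only changes that were not called reversed sign. At the 2-cell stage Pdgfra was at 0.061 with median-of-ratios scaling and 0.20 with quantile normalization, and Lama1 at 0.013 and 0.13. With 1 library left out, the 2-cell change ranged from -0.19 to 0.11 for Pdgfra, from -0.12 to 0.060 for Lama1, from -0.16 to 0.31 for Srgn and from -0.0072 to 0.077 for Spry2. In blastocysts it ranged from -0.23 to 0.085 for Pdgfra, from -0.14 to 0.32 for Cd68, from -0.22 to 0.019 for Lrpap1 and from -0.027 to 0.22 for Pdgfa. The difference of effects was 0.025 for Pdgfra with a pseudocount of 0.1 and ranged from -0.19 to 0.13 for Pdgfra and from -0.27 to 0.16 for Dab2. Values under 1 FPKM rest on few fragments, and the depth behind them is unknown.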
